A study of Gallus gallus with 6 samples.

Results

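Chromatin of chicken abdominal fat was mapped by ATAC-seq, an assay whose Tn5 transposase inserts where nucleosomes leave DNA bare. The regions described here lie inside protein-coding genes, away from the ends of any gene, and had a peak in every bird. They number 1064 of the 100148 regions obtained by merging the peaks of 6 libraries, and 1064 of the 5274 regions on chromosomes 1 to 10 that had a peak in all 6. They were chosen by the peak calls themselves: a peak in all 6 libraries, a merged width under 1500 bp, and a midpoint inside a RefSeq protein-coding gene and more than 1 kb from the annotated ends of every gene. Their presence in every bird, their width limit and their place in genes are therefore no findings. The 6 birds, 1 library each, came from the NEAUHLF population, known as a pair of broiler lines bred apart for high and low abdominal fat. The labels call them FL (3 birds) and LL (3 birds), and name neither age nor sex nor any treatment.

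Open DNA inside a gene, most often in an intron, can hold an enhancer of that gene or of a neighbour, a binding site of the insulator protein CTCF, or the start of a shorter transcript. Sites near gene ends are mostly promoters, which tend to be open in many tissues, whereas distal sites tend to be specific to a cell type. In fat cells such sites are known to be bound by PPARG and the C/EBP factors. The gene table used here gives only the outer ends of each gene, so internal transcript starts, exons and introns could not be told apart. Tissue is a mixture of cells, so fewer cells of a type and less open DNA per cell cannot be told apart either. No genome sequence was used here, so no bases or motifs are shown.

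The lists held between 15628 peaks in LL replicate 3 and 73410 in LL replicate 1. Of 24 genes that mark fat cells, between 10 and 21 had a peak within 1 kb of an end in a library and 8 had one in all 6, among them PPARG, CEBPB, FABP4 and LPL. LEPR and RBP4 had none, and LIPE is on no chromosome in the gene table. Among coding genes of chromosomes 1 to 10 that held none of the regions described here, 42.2% had such a peak in all 6. In single libraries their share ran from 47.1% in LL replicate 3 to 75% in LL replicate 1. Only 12 of the 24 fat cell genes lie on chromosomes 1 to 10, so the sets compared are unlike. The counts do not show that fat cell genes stand apart from other genes. Counts for most lists, those of other cells included, were highest in FL replicate 1 and LL replicate 1. These 2 libraries had peaks at the ends of 18 and 19 of 24 endothelial genes against 4 to 7 in the others, and of 15 and 16 of 18 myeloid genes against 4 to 9. The part of cell mixture in the results below was not tested.

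Distal intragenic DNA supplied most regions called in few birds and a minority of those called in all. It covers from 48.1% of chromosome 2 to 63.3% of chromosome 10, so its majority among regions called in few birds is near its share of the DNA. Among regions under 1500 bp it made up 52.9% of the 34570 called in 1 library, 58.1% of those called in 2, 49.7% of those called in 4 and 23.2% of the 4587 called in all 6. Gene ends took the opposite course, from 7.23% of regions called in 1 library to 63.6% of those called in all 6. Put the other way, 1064 of 36385 distal intragenic regions (2.92%) were called in every bird, against 2917 of 9784 gene-end regions (29.8%) and 480 of 19035 intergenic regions (2.52%). A further 1222 distal intragenic regions were called in 5 libraries. The missing library was LL replicate 3 for 474 of them and FL replicate 2 for 442, but FL replicate 1 for 7 and LL replicate 1 for 3. Leaving out LL replicate 3 gave 1545 and leaving out FL replicate 2 gave 1509 members, against 1082 to 1249 for any other library.

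**Figure D1:**
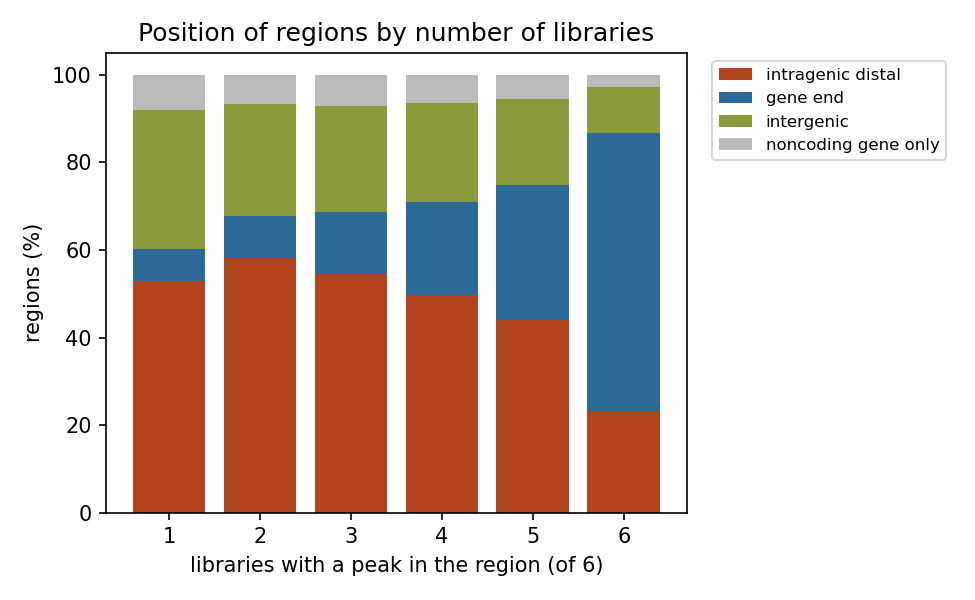
Share of union regions under 1500 bp (y axis, percent) in each position class, by the number of libraries with a peak in the region (x axis). Distal intragenic regions fall from 52.9% of regions in 1 library to 23.2% of those in all 6, while gene ends rise from 7.23% to 63.6%.

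The widest members lay inside ARHGAP31 (1493 bp) and ARID1B (1499 bp), and the narrowest regions left out for width lay inside PLEKHO2 (1504 bp) and CALD1 (1510 bp). Their poorest ranks, each the weakest of 6 within-library ranks among all 5274 regions (0% strongest), were 95.4% and 90.2% inside the limit and 95.9% and 91.3% outside it. Width left out 131 regions in all. The members nearest a gene end lay 1.01 kb from an end, inside CCNB1, and 1.02 kb, inside ZBTB2. The nearest left out lay at 0.976 kb in NAPEPLD and 0.971 kb in LOC107050717. Of the 1064 members, 42 had a −log10 q under 3 in their weakest library, close to the end of the lists near 2.

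That the peaks of a member overlap and stay within 1500 bp follows largely from the way members were chosen. Merged width had a median of 847 bp and quartiles of 690.5 and 1036 bp. At least 1 base lay in a peak of all 6 libraries in 989 members (93.0%), and the median length shared by all 6 was 174 bp. The other 75 were joined only through a chain of peaks, among them the ARHGAP31 region. The strongest summits of the 6 libraries spanned a median of 159 bp, and in 284 members (26.7%) they lay within 100 bp. The median distance of a library's summit from the median summit of the others was 34, 47.5 and 40 in FL and 35, 42 and 55 in LL replicates 1 to 3, in bp. Against gene-end regions open in every bird this distance was different by -2.92 ± 3.29 bp (SD of 6 libraries, exact sign permutation p = 0.125, adjusted p = 0.156), and against intergenic ones different by 2.08 ± 2.75 bp (exact p = 0.156, adjusted p = 0.156). Neither difference exceeded its spread between libraries.

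Peak length at the members differed more between birds of a line than between lines. The median peak at a member was 672, 286 and 256 in FL and 793, 458 and 385 in LL replicates 1 to 3, in bp. The FL mean was 404.5 ± 232 bp and the LL mean 545 ± 218 bp (SD over 3 birds a line), a difference of -141 bp (exact permutation p = 0.5, adjusted p = 0.5, smallest possible p 0.1). Leaving out LL replicate 1 made it -14.7 bp and leaving out FL replicate 1 made it -276 bp, the libraries with the longest peaks of each line. A member was split into several peaks in 36, 66 and 81 cases in FL and in 3, 21 and 17 in LL. The shortest peak of the whole list also differed between the lines without overlap. It was 146, 124 and 112 in FL and 166, 170 and 178 in LL replicates 1 to 3, in bp. The length difference kept its sign with peaks of at least 178 bp. The part of the shortest peak length in the split counts was not tested.

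In strength the members stood below gene ends and slightly below intergenic regions. The authors' fold enrichment compares the summit with the local background of the same library. Its median over members was 5.88, 4.3 and 6.55 in FL and 7.88, 4.35 and 3.28 in LL replicates 1 to 3. Since these folds cannot be set against each other across libraries, each region was ranked within each library among the same 5274 regions called in all 6, from 0% for the strongest to 100% for the weakest. The median rank of members was 67.8, 67.3 and 64.7 in FL and 64.4, 55.4 and 58.1 in LL replicates 1 to 3, in percent. That of gene-end regions of the same chromosomes and width was 36.1, 39.7 and 40.1 in FL and 37.6, 45.1 and 42.9 in LL, and that of intergenic regions 61.8, 65.4 and 63.6 in FL and 59.2, 49.5 and 52.2 in LL. Members ranked weaker than gene ends in 6 of 6 libraries, by 22.7 ± 8.18 percentage points (SD; exact sign permutation p = 0.03125, the smallest 6 libraries allow). The adjusted p over 4 comparisons was 0.0625, which misses 0.05. Against intergenic regions they were also weaker in 6 of 6 libraries, by 4.35 ± 2.22 points (exact p = 0.03125, adjusted p = 0.0625), but by 1.22 points with strongest peaks taken by −log10 q (exact p = 0.281, adjusted p = 0.281). A rank of 50% or better in all 6 libraries was held by 87 members (8.18%), against 29.9% of gene-end and 11.04% of intergenic regions.

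**Figure D2:**
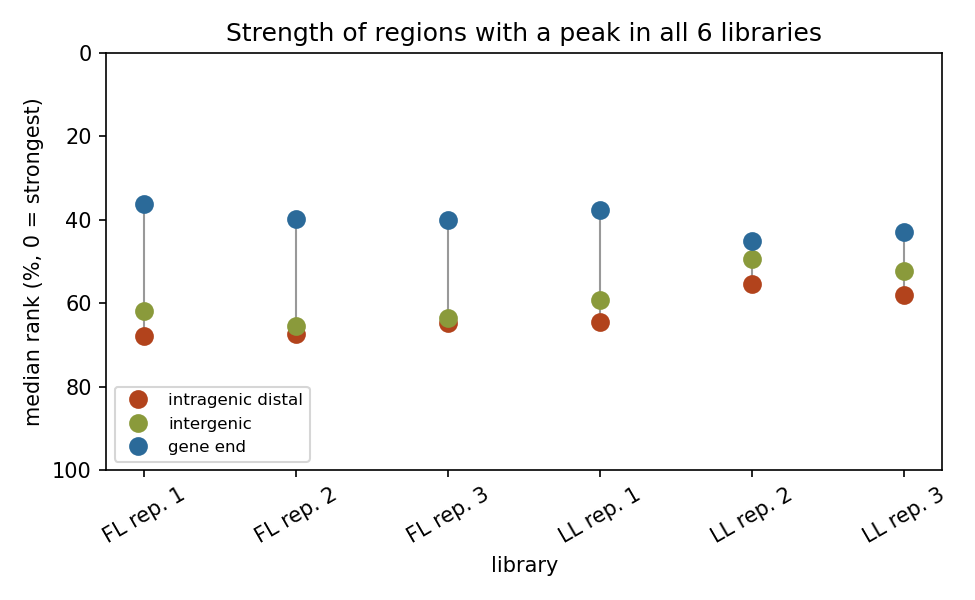
Median rank by fold enrichment within each library (y axis, percent, 0 the strongest of the 5274 regions called in all 6) for 3 classes of region, with a grey line joining gene ends to distal intragenic regions. Distal intragenic regions lie lowest in every library, and the line is shortest in LL replicates 2 and 3.

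A call in all 6 libraries, the shortest list included, favours the stronger peaks of each list. The members' strongest peaks had a median place of 14.7, 25.7 and 31.9 in FL and 13.4, 26.4 and 38 in LL replicates 1 to 3, in percent of the whole list, and the 2 longest lists gave the best places. The pileup at the summit, recovered from the fold enrichment and the p-value of the caller, had a median of 93, 31 and 30 in FL and 155, 42 and 40 in LL fragments. The values in FL replicates 2 and 3 and LL replicates 2 and 3 rest on medians of 30 to 42 fragments and carry the larger counting error. A member's rank varied widely from bird to bird, with a median range of 44.8 percentage points over the 6 libraries. The Spearman correlation of ranks over the 1064 members, given as a description since regions of a library share its depth, was 0.80 between FL replicate 1 and LL replicate 1 and 0.69 between FL replicates 2 and 3. It was 0.55 to 0.68 among the LL libraries and 0.30 to 0.40 between FL replicates 2 or 3 and any LL library. FL replicate 1 was nearer to the LL libraries (0.54 to 0.80) than to the other FL libraries (0.43 and 0.51).

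The best-ranked members lay in genes of varied function. The first of all lay inside LOC112531831, a gene without a name (chromosome 2, 97148198 to 97148487, GRCg7b as all positions here), 61 kb from the nearest gene end and only 290 bp wide. Its fold enrichment was 37, 54.2 and 55.8 in FL and 37.6, 38.2 and 37.5 in LL replicates 1 to 3. It was the strongest of the 5274 regions in all 6 libraries and first by fold in the whole list of all but FL replicate 1, where it was second. With strongest peaks taken by −log10 q its poorest rank was 2.65%. Whether its sequence is repeated in the genome was not tested, and its fold and place carry that limit.

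Next came a region inside ANKRD42 (chromosome 1, 189057638 to 189058490), with a fold enrichment of 11.3, 8.33 and 18.1 in FL and 15.4, 10.4 and 5.25 in LL. Inside STK3, a kinase of the Hippo growth pathway (chromosome 2, 127380280 to 127381559), the region lay 18.5 kb from a gene end and reached 14.3, 7.3 and 11.8 in FL and 14.9, 6.7 and 5 in LL. Both stood within the strongest 13.3% of the 5274 regions in every library. The region inside KIF11, a motor protein of the mitotic spindle (chromosome 6, 21536819 to 21537705), reached 16.3, 7.25 and 11.3 in FL and 14.7, 7.51 and 5.55 in LL. ALDH18A1, an enzyme of proline synthesis (chromosome 6, 36119138 to 36119941), held one at 12, 6.95 and 11.7 in FL and 17.1, 6.03 and 4.73 in LL. G2E3, a ubiquitin ligase, held one 1.8 kb from a gene end at 10.8, 6.8 and 14.1 in FL and 14.6, 6.88 and 4.76 in LL. These all had a poorest rank of 15.9% or better. With strongest peaks taken by −log10 q it was 28.4% for KIF11 and 37.4% for ALDH18A1, and at most 14.4% for the other 3.

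The remaining 4 of the best were inside ST7, LGMN, COL15A1 and LOC107052441. In LGMN, a lysosomal protease (chromosome 5, 44345129 to 44345865), the fold enrichment was 11.1, 10.2 and 21.4 in FL and 13.3, 6.23 and 4.25 in LL, and its ranks were 9.7, 1.36 and 0.237 in FL and 12.6, 12.7 and 19.6 in LL, in percent, with no overlap between the lines. In COL15A1, a collagen of basement membranes (chromosome 2, 55533913 to 55534487), the region lay 42.6 kb from a gene end at 9.9, 6.78 and 14.1 in FL and 12, 6.18 and 4.74 in LL. The ends of COL15A1 had a peak in FL replicate 1 and LL replicate 1 alone. The region inside ST7 (chromosome 1, 24927798 to 24928654) was at 9.56, 8.94 and 13.4 in FL and 14.2, 7.35 and 4.39 in LL, 51.1 kb from a gene end. All 3 lay within the strongest 21.0% in every library, but with strongest peaks taken by −log10 q the poorest rank was 60.8% for COL15A1, and it went from 17.97% to 57.1% for LOC107052441.

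**Figure D3:**
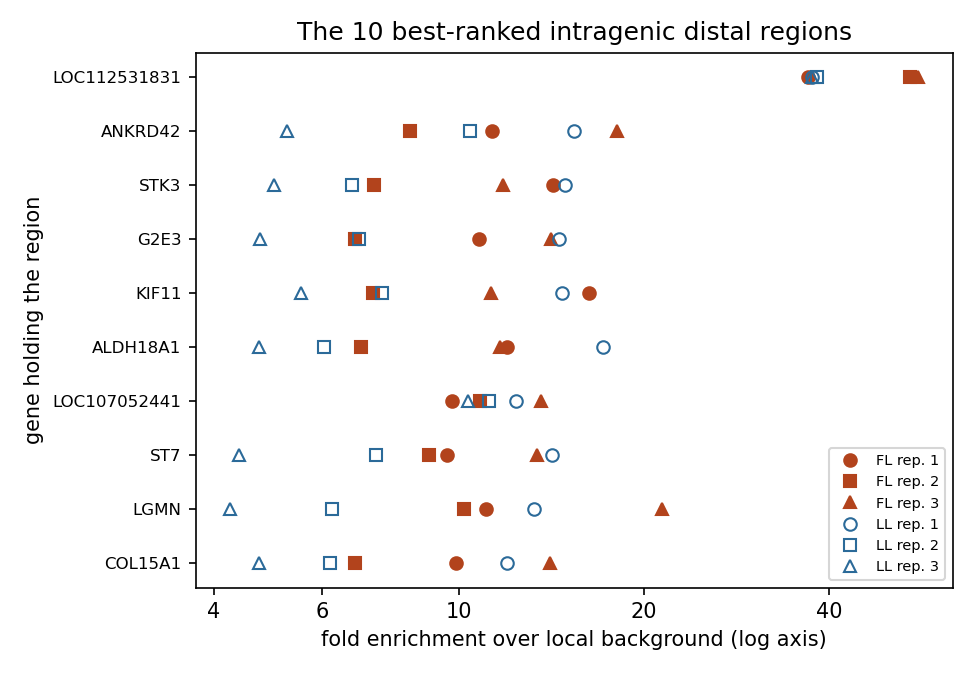
Fold enrichment over local background (x axis, log scale) of the 10 best-ranked regions, labelled by the gene that holds them (y axis), with 1 point per library, filled for FL and open for LL. The LOC112531831 region stands apart in all 6 libraries at 37.0 or more, and folds of different libraries share no common scale. Whether the first region is a repeated sequence was not tested.

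The members were spread over 878 of the 9934 coding genes of chromosomes 1 to 10 (8.84%), some lying in overlapping genes. Of these genes 719 held 1 member, 118 held 2 and 41 held 3 or more. They were long genes, with a median of 69.0 kb against 17.0 kb for all coding genes. The rule itself favours long genes, which offer more DNA away from gene ends, so their length is no finding. Only 1.92% of genes under 20 kb held a member, against 9.76% of those of 20 to 50 kb, 19.0% of those of 50 to 100 kb and 31.1% of those of 100 kb or more. The median distance of a member from the nearest gene end was 12.8 kb and the longest 290.4 kb. The share of distal intragenic regions called in all 6 libraries was 3.79% at 1 to 2 kb from a gene end, 3.26% at 5 to 20 kb and 2.14% beyond 50 kb. Per Mb of DNA inside genes and away from ends, chromosome 1 had 2.15 members and chromosome 10 had 3.94, with 2.75 over the 10 chromosomes. Members within annotated noncoding genes as well came to 3.01%, and 3.04% of the DNA searched lay in such genes. Most members stood alone, with a median of 127 kb to the next and 89 (8.36%) within 10 kb of another.

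In each library an end was open somewhat more often in genes that held a member than in other genes, at 80.4%, 65.0% and 62.6% in FL against 73.1%, 63.5% and 60.2%, and at 82.5%, 56.5% and 48.2% in LL against 75%, 54.5% and 47.1%. The share open in every bird was about the same. An end had a peak within 1 kb in all 6 libraries for 365 of the 878 genes (41.6%) and for 42.2% of the other 9056. No end had a peak in any library for 123 of the 878 (14.0%) and for 19.9% of the others. In 513 genes a site inside the gene was called in every bird while a peak at an end was not. The order depended on gene length: among genes of 100 kb or more the ends were open in all 6 libraries for 40.2% of those with a member and 34.2% of those without, and among genes of 20 to 50 kb for 42.8% and 52.3%. These shares are descriptions, since the same lists gave the members and the ends.

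RBMS1, an RNA-binding protein, held the most members, with 7 over 344 kb. The first 2 along the chromosome also lay inside the overlapping gene TANK. The strongest by poorest rank (chromosome 7, 21103070 to 21104213) had a fold enrichment of 8.1, 6.94 and 12.5 in FL and 9.89, 5.21 and 3.34 in LL, and the weakest by poorest rank (chromosome 7, 21202947 to 21203502) 3.04, 4.41 and 4.76 in FL and 5.61, 3.84 and 2.6 in LL. FGGY, a carbohydrate kinase, held 6 over 279 kb, with poorest ranks from 86.3% to 92.9%. Its regions at 26058049 to 26059076 and 26064759 to 26065437 on chromosome 8 ranked stronger in every LL than in every FL library. The ranks of the first were 91.2, 87.8 and 89.4 in FL and 54, 72.5 and 43.5 in LL replicates 1 to 3, in percent. ZFPM2, a cofactor of GATA factors, held 5 over 309.8 kb, 1 of which had no base shared by all libraries.

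The region of ZFPM2 at 129964433 to 129964939 on chromosome 2 had a fold enrichment of 6.48, 3.22 and 4.96 in FL and 11.9, 5.93 and 3.81 in LL. Its LL ranks were 21.5%, 17.5% and 33.3%, all stronger than the FL ranks of 57.7%, 92.9% and 86.8%. MPHOSPH10 held 5, but its annotated span of 1077 kb covers other coding genes, 1 of the 5 had no shared base, and 4 also lay in THSD4, MYO1E, FAM81A or CCNB1. With 4 members, 9 genes tied for the next place, and the shortest of these was LOC107052441, at 22.2 kb. Its region at 148813745 to 148814237 on chromosome 2 had a fold enrichment of 10.7, 6.88 and 7.31 in FL and 10.9, 11.6 and 15.3 in LL. LL replicates 2 and 3 ranked it within the strongest 0.3%, and FL replicate 3 at 54.8%.

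Genes of the fat cell held few members, set densely in 3 genes. Of the 24 fat cell genes 12 lie on chromosomes 1 to 10, and 3 of the 12 (25%) held a member, against 8.84% of all coding genes. Their 6 members amount to 24.4 per Mb of gene interior, against 2.75 over all genes. Of these, 3 lay in ACSL1, which activates long-chain fatty acids, 2 in CD36, which takes fatty acids into the cell, and 1 in PNPLA2, the triglyceride lipase. No member lay in FABP4, CEBPD, PLIN1, ADIPOQ, CIDEA, SCD, DGAT2, LEPR or ADIPOR2. Each ranked weak in at least 1 library, with poorest ranks from 87.3% to 99.04%. They rest on 3 genes, and ACSL1 and CD36 are 72.2 and 38.8 kb long. Of all genes of 50 to 100 kb 19.0% held a member, and of those of 20 to 50 kb 9.76%. The density was taken over 0.246 Mb. It also depends on the processing. Once all lists were cut to equal length, only the ACSL1 region from 39007456 and the CD36 region from 11419131 remained. A stricter −log10 q limit of 5 kept all those of ACSL1 and CD36 but lost the PNPLA2 region. Setting a shortest peak of 178 bp lost the PNPLA2 region too, and 1 each in ACSL1 and CD36. Lists of other cells ran from 0 to 7.95 members per Mb, and the endothelial list had the same share of 25%.

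The ACSL1 region strongest by poorest rank (chromosome 4, 39007456 to 39008406), 34.4 kb from a gene end, had a fold enrichment of 6.26, 5.82 and 11.4 in FL and 5.98, 4.22 and 2.74 in LL replicates 1 to 3. FL replicate 3 ranked it strongest, at 15.3%, and LL replicate 3 weakest, at 87.3%. The second ACSL1 region (chromosome 4, 38989874 to 38990410) had 6, 3.22 and 3.98 in FL and 8.94, 3.58 and 3.04 in LL. It ranked stronger than the first in LL replicates 1 and 3, at 52.5% and 71.9% against 86.5% and 87.3%. The third (chromosome 4, 39015649 to 39017132) had 4.42, 3.83 and 5.5 in FL and 4.45, 2.86 and 2.63 in LL, and its 6 peaks shared only 20 bp. Its ranks were stronger in every FL than in every LL library, from 79.4% to 89.3% in FL and from 92% to 97.1% in LL.

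In CD36 the regions lay 18.7 kb and 9.26 kb from the nearest gene end. The first (chromosome 1, 11408188 to 11409204) had a fold enrichment of 3.99, 4.5 and 6.28 in FL and 4.99, 3.5 and 2.81 in LL and the second (chromosome 1, 11419131 to 11419771) 4.49, 3.81 and 7.15 in FL and 4.66, 3.94 and 2.68 in LL. The lines overlapped in rank at both. The PNPLA2 region (chromosome 5, 15363687 to 15364276) had 3.84, 2.92 and 3.43 in FL and 6.14, 4.18 and 2.72 in LL. It ranked stronger in every LL than in every FL library. The ends of CD36 had a peak within 1 kb, and also within 2 kb, in FL replicate 1 and LL replicates 1 and 2 alone, while its inner regions were called in all 6. ACSL1 gave the same 3 libraries within 1 kb. However, 1 region beyond its end was called in all 6, with peaks that began 0.963 to 1.21 kb away, so within 2 kb all 6 had a peak. The midpoint of that region lay within 1 kb of an end of another annotated gene, not of ACSL1. In FL replicate 1 and LL replicate 2 the only peak within 1 kb of ACSL1 was the edge of that region, 0.99 and 0.963 kb away. PNPLA2 had an open end in all 6. The 2 kb window was chosen after seeing the data. Distal peaks inside ACSL1 numbered 8, 3 and 5 in FL and 12, 6 and 4 in LL, and those inside CD36 8, 5 and 3 in FL and 11, 3 and 5 in LL.

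**Figure D4:**
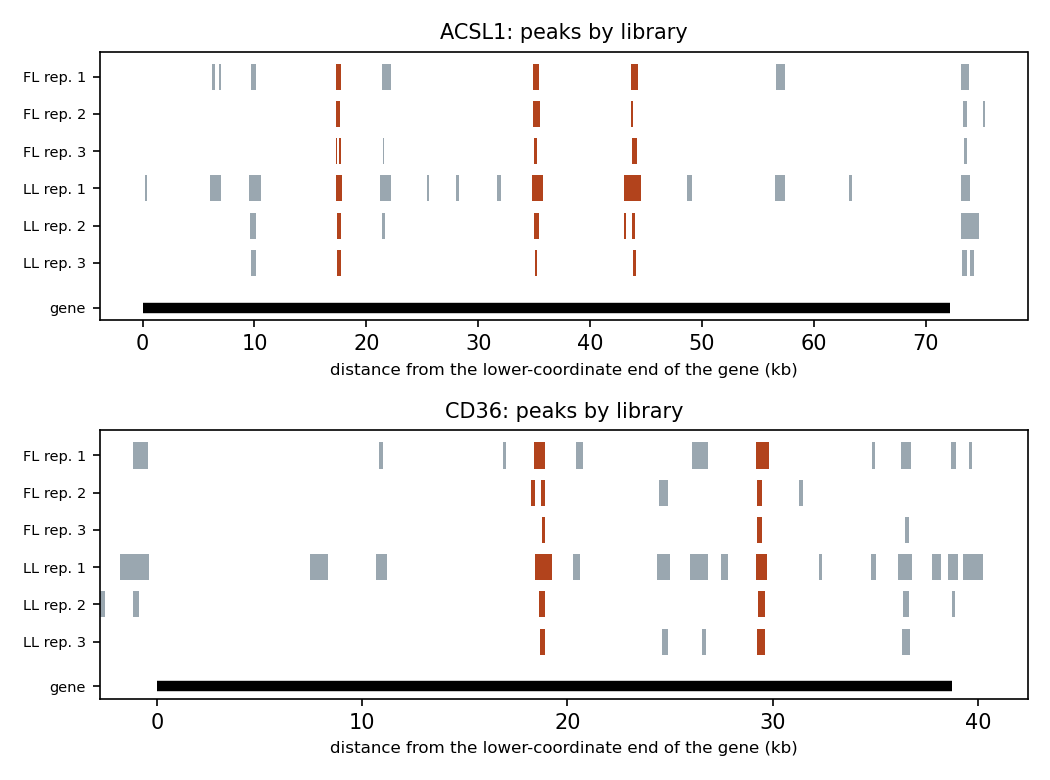
Peaks of each library (rows) along ACSL1 and CD36, by distance in kb from the lower-coordinate end of the gene (x axis; black bar, the annotated gene). Peaks of the distal intragenic regions called in all 6 libraries are red, 3 regions in ACSL1 and 2 in CD36, and all other peaks are grey and most frequent in FL replicate 1 and LL replicate 1.

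Genes of lipid breakdown held 4 members in 2 of 13 genes (15.4%), or 11.7 per Mb, against 8.84% and 2.75 per Mb over all coding genes. The median length of the list is 24.2 kb, and of all genes of 20 to 50 kb 9.76% held a member. PDE3B, the phosphodiesterase through which insulin restrains lipolysis in mammals, held a region 15.4 kb from a gene end (chromosome 5, 10121313 to 10121864). The fold enrichment of this region was 10.4, 4.07 and 6.58 in FL and 12.1, 5.76 and 4.32 in LL. FL replicate 1 and the LL libraries ranked it within the strongest 20.6%, and FL replicates 2 and 3 at 73.1% and 64.4%. CPT1A, which admits fatty acids to mitochondria, held one (chromosome 5, 16225270 to 16226494) with the same split, at ranks of 21, 89.7 and 67.8 in FL and 34.4, 34.4 and 34.7 in LL, in percent. Both genes held a second member with a weaker poorest rank, 90.2% in PDE3B and 98.0% in CPT1A. The second PDE3B region ranked stronger than the first in FL replicates 2 and 3, at 35.6% and 50.4%. In FL replicate 2 the second CPT1A region also ranked stronger than the first, at 78.7%. With strongest peaks taken by −log10 q its poorest rank was 89.1%, against 96.2% for the first CPT1A region. Of 19 genes of fatty acid and triglyceride synthesis only LPIN1, a phosphatidate phosphatase, held a member (5.26%, against 8.84% of all coding genes). Its fold enrichment was 5.27, 2.65 and 3.85 in FL and 7, 3.25 and 2.62 in LL.

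Among regulators of adipogenesis 5 of 20 genes (25%) held 6 members, or 2.53 per Mb, close to the 2.75 of all genes, in a list of long genes with a median of 80.5 kb. They were NCOA2, a nuclear receptor coactivator, TCF7L2, a factor of WNT signalling, TEAD1, a factor of the Hippo pathway, PPARA and FOXO1. The NCOA2 region (chromosome 2, 116246511 to 116247217) was the strongest by poorest rank, with a fold enrichment of 8.47, 7.29 and 10.8 in FL and 9.7, 4.87 and 3.39 in LL. Its ranks were 30.3, 10.4 and 19.1 in FL and 43.4, 39.8 and 52.2 in LL, in percent, with every FL library stronger than every LL library. With strongest peaks taken by −log10 q its poorest rank was 70.1%. Of the 2 TEAD1 regions 1 had no base shared by all libraries. Both ranked stronger in every LL than in every FL library, as did 14.7% of all members and 8% of all 5274 regions. The gap between the nearest birds of the lines was 0.616 points for the one without a shared base and 15.0 points for the other.

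Of 24 insulin and glucose genes 6 (25%) held 7 members, or 3.92 per Mb, against 8.84% and 2.75 per Mb over all coding genes. The median length of the list is 63.5 kb, and of all genes of 50 to 100 kb 19.0% held a member. The region inside GRB14, an adaptor that restrains the insulin receptor (chromosome 7, 19802191 to 19802917), had a fold enrichment of 7.63, 8.32 and 13.8 in FL and 11.1, 5.37 and 4.52 in LL and ranked within the strongest 40.2% in every library, or 76.5% with strongest peaks taken by −log10 q. The ends of GRB14 had a peak within 1 kb in FL replicates 1 and 2 alone, and within 2 kb in all but LL replicate 3. IGF2BP3, an RNA-binding protein, held 2, and GRB10, PIK3CB and AKT1 held 1 each.

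The list with the largest share was growth factor and TGF-beta signalling, where 9 of 22 genes (40.9%) held 13 members, or 6.6 per Mb. Over all coding genes the values were 8.84% and 2.75 per Mb. Its genes are long, with a median of 72.1 kb, and of all genes of 50 to 100 kb 19.0% held a member. Several holders are longer, EGFR and BMP2 at 257 and 244 kb, and of all genes of 100 kb or more 31.1% held a member. The holders ran from ligands (BMP2, TGFB2) through receptors (BMPR1A, BMPR2, TGFBR3, EGFR and ATVR1, which the table also lists as ACVR1) to the signal carriers SMAD1 and SMAD3. SMAD1, which carries BMP signals to the nucleus, held the strongest by poorest rank (chromosome 4, 30690033 to 30691303), 47.4 kb from a gene end, with a fold enrichment of 9.05, 8.37 and 13.2 in FL and 11.1, 7.28 and 4.52 in LL. All 6 libraries ranked it within the strongest 28.3%, or 16.6% with strongest peaks taken by −log10 q. The better region of BMPR1A, a BMP receptor (chromosome 6, 3252674 to 3253680), had 8.81, 6.04 and 12.9 in FL and 10.5, 4.23 and 3.17 in LL, and its ranks were stronger in every FL than in every LL library. With strongest peaks taken by −log10 q the poorest rank of this region of BMPR1A went from 64.5% to 75.2%. BMPR2, its partner receptor, held 3 regions with poorest ranks of 74%, 83.3% and 86.9%. EGFR held 2, and its ends had a peak within 1 kb in no library and within 2 kb in FL replicate 2 alone, whereas the ends of SMAD1, SMAD3, BMP2, BMPR1A, BMPR2 and TGFBR3 had one in all 6.

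Of 17 clock and nuclear receptor genes, with a median length of 44.8 kb, 4 (23.5%) held 6 members, or 3.44 per Mb. Over all coding genes 8.84% held a member, with 2.75 per Mb, and of those of 20 to 50 kb 9.76% did. The holders RARB and ESRRG are 324 and 384 kb long, and of all genes of 100 kb or more 31.1% held a member. NR2F2, an orphan nuclear receptor of mesenchymal cells, is 12.3 kb long and held a region (chromosome 10, 15847684 to 15848239) with a fold enrichment of 8.5, 5.62 and 9.62 in FL and 9.94, 6.17 and 4.52 in LL replicates 1 to 3. The nearest gene end, 2.42 kb away, belongs to another annotated gene. This region ranked within the strongest 41.1% in every library, or 14.8% with strongest peaks taken by −log10 q. No library had a peak within 1 kb of the annotated ends of NR2F2, and 4 had one within 2 kb. RARB, a retinoic acid receptor, held 3, all within the strongest 68.1% in every library. With strongest peaks taken by −log10 q their poorest ranks were 87.1%, 84.7% and 68.7%. The one at 37653859 to 37654889 on chromosome 2 had 7.23, 5.13 and 6.97 in FL and 11.6, 4.95 and 4.2 in LL and ranked stronger in every LL than in every FL library. CRY2, a repressor of the clock, held a region at 7.79, 4.75 and 7.61 in FL and 8.74, 3.92 and 3.17 in LL, and ESRRG held 1 as well.

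Lists of other cells held members at shares from 0 of 9 myeloid, 0 of 10 skeletal muscle and 0 of 11 hepatocyte genes to 4 of 16 endothelial genes (25%). Over all coding genes 8.84% held a member, with 2.75 members per Mb. Apart from those lists at 0, the density was 0.651 per Mb in the neuronal, 2.06 in the lymphocyte and 2.62 in the fibroblast list. It was 2.85 in the smooth muscle and pericyte, 4.35 in the endothelial, 6.84 in the mesothelial and 7.95 in the erythroid list. The endothelial holders were EPAS1, a hypoxia factor, EMCN, NRP2 and FLT1, with poorest ranks from 95.4% to 96.7%. Of 18 fibroblast genes 2 (11.1%) held 1 each, DCN, a matrix proteoglycan, and COL5A2, a fibrillar collagen. The DCN region (chromosome 1, 44096441 to 44096961) ranked alike in all birds, with values of 36.3, 46.4 and 37.6 in FL and 33.6, 39 and 42.8 in LL, in percent, and a fold enrichment of 7.94, 5.08 and 8.7 in FL and 10.7, 4.9 and 3.59 in LL. With strongest peaks taken by −log10 q its poorest rank was 65.3%. BNC1 of the mesothelial list held 2 and had no peak within 2 kb of an end in any library. SCN2A of the neuronal list, with a peak within 1 kb of an end in no library and within 2 kb in 3, held 1. The peaks of the COL5A2 and CSPG4 regions shared no base, and those of EPAS1 shared 1. BCL11B (lymphocytes), CSPG4 (pericytes) and GYPC (red cells) held 1 each. None of 8 housekeeping genes, with a median length of 11.2 kb, held a member.

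Between the lines the ranks of the members stood nearer the top in LL, in a design where no such difference could pass 0.05. The median rank of members averaged 66.6% ± 1.67 for FL and 59.3% ± 4.61 for LL (SD over 3 birds a line), so the members stood 7.3 points stronger in LL (exact permutation p = 0.1, the smallest 3 against 3 libraries allow, adjusted p = 0.3). The lines did not overlap, but LL replicate 1, at 64.4%, lay next to FL replicate 3, at 64.7%. Leaving out LL replicate 2 gave 4.89 points and leaving out LL replicate 1 gave 9.82. A rank is relative to the other regions of the library. Intergenic regions also stood nearer the top in LL, at 61.8, 65.4 and 63.6 in FL and 59.2, 49.5 and 52.2 in LL, in percent. Members ranked weaker than intergenic regions by 3.03 points in FL and 5.67 in LL (exact permutation p = 0.4, unadjusted). They ranked weaker than gene ends by 27.9 points in FL and 17.5 in LL (exact permutation p = 0.2, unadjusted). The median fold of gene ends exceeded that of members 1.35, 1.25 and 1.29 times in FL and 1.3, 1.08 and 1.09 times in LL. The lowest background solved from a list was 8.26, 4.9 and 2.23 in FL and 8.1, 5.8 and 8.73 in LL replicates 1 to 3, in fragments over a base. This value is no read total, and it was highest in LL replicate 3, which had the shortest list. The part of library quality and depth in the rank difference between the lines was not tested. The share of a library's peaks that were intragenic and distal was 51, 37.3 and 37.9 in FL and 54.7, 43.2 and 38.4 in LL, in percent (42.1% ± 7.76 in FL and 45.4% ± 8.39 in LL, exact permutation p = 0.5, adjusted p = 0.5), and the difference turned from -3.39 to 1.4 points without LL replicate 1.

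Region by region, 156 of 1064 members (14.7%) ranked stronger in every LL than in every FL library, against 8% of all 5274 regions called in every bird. The reverse held for 60 members (5.64%), against 7.19% of all 5274. Intergenic regions leaned the same way, with 13.75% and 4.38%, and gene ends the other way, with 5.11% and 7.92%, values given as a description. In the settings that kept all 6 libraries the members stronger in LL came to between 12.5% and 17.95% of members. The 12.5%, at equal list length, stood against 7.07% of all regions called in every library. The 17.95%, with strongest peaks taken by −log10 q, stood against 10.2%. No single region can pass a test with 3 birds a line.

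**Figure D5:**
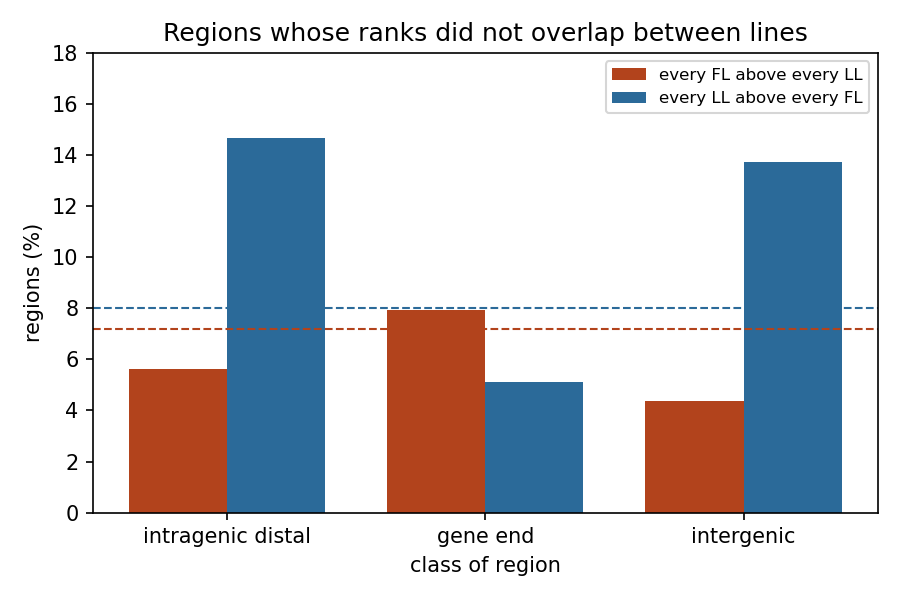
Percent of regions (y axis) in each class (x axis) whose ranks in every FL library were stronger than in every LL library (red) or the reverse (blue), with dashed lines for all 5274 regions called in all 6 libraries. Distal intragenic regions are at 5.64% and 14.7%, and gene ends at 7.92% and 5.11%.

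The member with the widest gap in favour of LL lay inside CEP170B (chromosome 5, 51257877 to 51258676), where the fold enrichment was 4.4, 2.82 and 3.67 in FL and 8.8, 4.78 and 4.05 in LL replicates 1 to 3, but its 6 peaks shared no base. MTO1, an enzyme that modifies mitochondrial tRNA (chromosome 3, 81205618 to 81206677), had 5.78, 3.51 and 4.63 in FL and 10.2, 5.31 and 3.8 in LL. Its ranks were 69.4, 87.3 and 90.5 in FL and 37.8, 29.3 and 33.8 in LL, in percent, a gap of 31.6 points between the nearest birds of the lines. KCNMB2, a subunit of potassium channels (chromosome 9, 17327348 to 17328203), had 5.68, 3.45 and 5.47 in FL and 10.1, 5.15 and 3.81 in LL. LIMCH1 and SAMD12 completed the 5, with gaps of 30.8 and 29.7 points. At equal list length the CEP170B, LIMCH1 and SAMD12 regions were no longer members. With −log10 q of at least 5 those of CEP170B and SAMD12 were lost. The KCNMB2 region lay 1.15 kb from a gene end and was lost at a margin of 2 kb. Summit pileups in FL replicates 2 and 3 were 19 and 12 for CEP170B, 24 and 15 for LIMCH1 and 20 and 13 for SAMD12. SAMD12 had no peak within 2 kb of an end in any library.

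In favour of FL the widest gaps were narrower. ASPG, an asparaginase (chromosome 5, 50139662 to 50140789), had a fold enrichment of 6.68, 5.82 and 12.5 in FL and 7.01, 3.59 and 2.85 in LL replicates 1 to 3, with a gap of 20.97 points. RMND5A, part of a ubiquitin ligase (chromosome 4, 85143618 to 85144828), had 6.65, 6.52 and 11.4 in FL and 6.96, 2.93 and 2.88 in LL. RGS6, a regulator of G protein signalling (chromosome 5, 26271236 to 26271859), lay 69 kb from a gene end and had 7.13, 6.74 and 10.2 in FL and 7.6, 3.76 and 3.01 in LL. TSPAN14 and LRCH1 followed, with gaps of 20.2 and 19.8 points. The RGS6 region was no longer a member at equal list length, nor the LRCH1 region with −log10 q of at least 5. TSPAN14 had no peak within 2 kb of an end in any library.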

How the data were processed

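ATAC-seq peak lists of abdominal fat from 3 FL and 3 LL birds were analysed, 1 list per library. Per the submitters' processing notes reads were handled with MACS3 3.0.0b1, BWA and other tools on GRCg7b. No source used here states their settings, duplicate removal or any shift for the Tn5 cut. The deposited lists give a score, a fold enrichment ratio, −log10 p, −log10 q and the summit of each peak. All are the authors' values. The fold was used only to rank and describe peaks within a list.

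Peaks overlapping by 1 bp or more were merged. Genes came from the RefSeq table of GRCg7b, which has no strand or exons, and list genes were matched by symbol or synonym (367 of 386). Pileups were solved from fold and p-value within a relative tolerance of 0.0001, for 100% of peaks, with fold as (pileup + 1) / (background + 1) and p as a Poisson tail. The lists hold no read totals, and precision is limited by the pileups. Region classes were compared by exact two-sided sign permutation of 6 within-library differences and lines by exact two-sided permutation of 20 assignments, with Benjamini-Hochberg adjustment over 4 and 3 comparisons. The p-values measure the spread between birds and libraries together. Named were the 10 members with the best poorest rank, the 5 genes with most members (of 9 tied at 4 the shortest), up to 3 genes per list, up to 5 members per direction of non-overlap between lines, and the 2 regions on each side of a threshold. Other list genes that hold a member were added by name, and some genes that the rule names are not reported here. Members and gene lists were chosen with earlier results of these data known. Alternatives covered the q-value, list length, peak length, margin, width, merging, ranking and each library, of which a base shared by all libraries and a 2 kb window at gene ends were chosen after seeing the data. The planned motif search was not run, as no genome sequence was used here. The code was tested on simulated data. Python 3.11.15, pandas 2.3.3 and scipy 1.17.1 were used.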

Additional observations from a re-analysis of the deposited data

How the results depend on the processing

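With −log10 q of at least 5 there were 708 regions, at an equal list length of 15628 peaks 618 regions in 562 genes, and with peaks of at least 178 bp 703 regions. Leaving out 1 library gave 1082 to 1545 regions in 888 to 1195 genes. Against gene ends the rank difference ran from 17.3 to 26.9 points over 16 alternatives. It passed 0.05 after adjustment with −log10 q of at least 5 (21.2 points) and at equal list length (17.3 points), as did the difference from intergenic regions (6.27 and 5.27 points) and the summit distance against gene ends (-6.5 and -6.83 bp), because 3 of the 4 comparisons then reached the smallest p. The summit distance against gene ends turned to 0.25 bp with widths under 1000 bp, and the cause was not tested. Leaving out 1 library gave rank differences of 20.9 to 25.4 points from gene ends and 3.49 to 5.04 from intergenic regions, where the smallest p is 0.0625. Between the lines the rank difference kept its sign in 17 of 17 alternatives (4.89 to 9.82 points). In several of them, the q limit of 5 and equal list length included, the lines overlapped. The share of distal intragenic peaks turned to 1.4 points without LL replicate 1 (-7.85 to 1.4 points without 1 library, -8.11 with peaks of at least 178 bp). Members stronger in every FL library came to 37 at equal list length (5.99%, against 6.62% of all regions called in every library). They came to 39 with peaks of at least 178 bp (5.55% against 6.80%) and 38 under 1000 bp (5.02% against 7.19%). Without 1 library they came to 96 to 208, at shares of 7.49% to 19.2% against 10.3% to 19.5% of all regions. Members stronger in every LL library came to 91 with −log10 q of at least 5 (12.9%, against 7.24% of all regions called in every library). They came to 77 at equal list length (12.5% against 7.07%) and 99 with peaks of at least 178 bp (14.1% against 7.38%). Without 1 library they came to 204 to 295, at shares of 17.3% to 25.5% against 10.98% to 19.2% of all regions. With fewer libraries ranks fail to overlap more often by construction: without FL replicate 1 both directions took 19.5% and 19.2% of all regions. Replicate numbers were not taken to pair the birds, since the labels do not say that they do. The deviations of same-numbered libraries correlated at 0.43, 0.14 and 0.04, and FL replicate 2 was nearest to LL replicate 3 (0.25). The 0.43, of FL replicate 1 with LL replicate 1, was the highest between any FL and LL library. These correlations therefore cannot decide whether the numbers pair birds. With the replicate block the rank difference was 7.3 points (exact p = 0.25, the smallest possible), the width difference -141 bp and the share difference -3.39 points, so it changed no call. Of the 88 named regions 51 were still members at equal list length and 58 with −log10 q of at least 5.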
